A study of Mus musculus with 20 samples.

Results

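The 25 genes described here are a chosen list from the GABA signalling system. They were taken by symbol from the 24421 genes that each of the 20 count files lists. GABA-A subunits and transporters outside the list were not analysed, which does not mean that they were absent from the libraries. They are 5 alpha, 2 beta, 2 gamma, 1 delta, 1 epsilon and 1 theta subunit of the GABA-A receptor, both subunits of the GABA-B receptor, 3 genes of GABA synthesis and vesicle loading, 2 GABA transporters of the plasma membrane, 2 proteins of the inhibitory postsynapse, 2 enzymes of GABA breakdown and 2 chloride transporters. All 25 were present in all 20 files. Poly-A RNA, selected from total RNA of the neocortex and of the hippocampus, was sequenced from female and male mice (age 3 months, hybrid of C57BL/6J and 129). There were 5 libraries for each genotype and region. In cTKO mice (labelled APP/APLP1/APLP2 -/-), floxed App, Aplp1 and Aplp2 were deleted by a Camk2a-Cre transgene, which acts in excitatory neurons of the forebrain after birth, so that interneurons and glia keep these genes. The controls, labelled wild type, were littermates with the same floxed alleles and no Cre. The questions asked were whether loss of the APP family in excitatory neurons changes transcripts of the GABA system, and how these transcripts differ between the neocortex and the hippocampus.

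GABA is the main inhibitory transmitter of the adult forebrain. It is made from glutamate by the decarboxylases encoded by Gad1 and Gad2, is loaded into vesicles by the transporter encoded by Slc32a1, and is removed by plasma membrane transporters and broken down by the enzymes encoded by Abat and Aldh5a1. GABA-A receptors are pentameric chloride channels: their alpha and gamma or delta subunits set where the receptor sits and how it responds to benzodiazepines and neurosteroids, and delta receptors carry tonic current outside the synapse. GABA-B receptors are dimers of Gabbr1 and Gabbr2 products that couple to G proteins. The direction of chloride flow depends on the exporter KCC2, encoded by Slc12a5, and the importer NKCC1, encoded by Slc12a2.

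Total counts per library ranged from 12169474 to 25331954. Levels are CPM, the counts of a gene scaled to a fixed total, on library sizes scaled by TMM, and the floor taken as 3 counts was 0.123 to 0.247 CPM, which covers counting error only. The deletion was visible in the libraries, since App, Aplp1 and Aplp2 each had cTKO values that lay wholly below the control values in both regions. App was at 331 to 407 CPM in cTKO and 1501 to 1810.3 CPM in control neocortex, and at 432 to 461 CPM in cTKO and 1377 to 1646 CPM in control hippocampus. The summed CPM of Aplp1, Aplp2 and App was 835 to 1022 in cTKO and 3358 to 3711 in control neocortex, and 969 to 1097 in cTKO and 3152 to 3543 in control hippocampus. As a check of the region labels, 6 of 6 dentate granule cell markers were higher in control hippocampus at an FDR under 0.05. Of all genes, 29.8% were. Only 4 of the 6 were kept by the filter of low counts among neocortical libraries alone. The others were kept through hippocampal libraries, where they are high, and add no weight. A pair of cTKO libraries stood apart, neocortex replicate 5 and hippocampus replicate 4, in which 5 genes of embryonic blood and tissue summed to 609.2 and 384 CPM against 0.861 to 3.08 CPM in the other 18 libraries. Values without one of them are given beside several members that they moved. In control hippocampus replicate 3, 5 markers of choroid plexus summed to 2697 CPM, against 75.3 to 490.4 CPM in the other controls.

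Between the regions, the order of the listed alpha subunits differed. Gabra5, whose subunit forms mostly extrasynaptic receptors of the hippocampus, was 3.9-fold higher in control hippocampus than in control neocortex, while Gabra3 was 2.05-fold and Gabrd 2.62-fold lower. Between the genotypes, no member passed an FDR of 0.05 in either region by the main test. The members nearest to it were Gabrd, lower in all 5 cTKO hippocampal libraries than in every control, and Gad2, 37.1% higher in cTKO neocortex and 22.9% higher in cTKO hippocampus by the fitted fold change.

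The 250 bases upstream of the start are shown for the 5 members of the receptor gene clusters of chromosomes 5, 7 and X that were called between regions in controls and whose window holds no annotated exon, so that neighbouring genes can be compared. Members with larger regional differences than some of these, Gabrd among them, are not shown. They are read 5′ to 3′ on the strand of the gene from RefSeq (GRCm38.p6) and end at the base before the annotated start, and capitals mark matches, on either strand, to TATAAA (the TATA box), TGACG (part of the cAMP response element), GGGCGG (the GC box) or CANNTG (the E-box). Gabra5 (minus strand, chr7:57510060-57510309) was the member with the largest rise in the hippocampus. Gabra2 (minus strand, chr5:71095850-71096099) and Gabrg1 (minus strand, chr5:70842618-70842867) belong to a cluster of 4 receptor genes that were all higher in control hippocampus. Gabra3 (minus strand, chrX:72656920-72657169, the outer of its 2 starts) and Gabrq (plus strand, chrX:72824928-72825177) lie in 1 cluster on chromosome X and were both lower. Of these, Gabrq was kept by the filter of low counts through its neocortical libraries, where it is high.
Gabra5: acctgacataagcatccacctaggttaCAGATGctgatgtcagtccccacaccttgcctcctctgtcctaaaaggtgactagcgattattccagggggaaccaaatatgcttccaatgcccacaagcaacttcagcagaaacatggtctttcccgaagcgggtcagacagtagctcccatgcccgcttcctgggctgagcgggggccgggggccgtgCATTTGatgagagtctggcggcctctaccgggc
Gabra2: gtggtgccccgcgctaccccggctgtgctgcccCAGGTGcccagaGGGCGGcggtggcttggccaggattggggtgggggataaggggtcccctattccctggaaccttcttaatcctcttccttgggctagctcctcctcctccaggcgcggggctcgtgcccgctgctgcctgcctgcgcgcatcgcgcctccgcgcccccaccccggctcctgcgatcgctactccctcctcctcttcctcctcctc
Gabrg1: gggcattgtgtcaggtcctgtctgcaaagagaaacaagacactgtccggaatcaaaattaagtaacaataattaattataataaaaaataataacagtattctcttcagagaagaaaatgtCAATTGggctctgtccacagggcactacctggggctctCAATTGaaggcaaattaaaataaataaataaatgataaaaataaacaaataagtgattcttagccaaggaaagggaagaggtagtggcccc
Gabra3: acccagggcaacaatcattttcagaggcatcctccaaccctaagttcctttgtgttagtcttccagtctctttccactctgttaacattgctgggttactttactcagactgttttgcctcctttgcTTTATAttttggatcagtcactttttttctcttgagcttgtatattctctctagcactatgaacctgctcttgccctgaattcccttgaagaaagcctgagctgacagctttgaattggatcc
Gabrq: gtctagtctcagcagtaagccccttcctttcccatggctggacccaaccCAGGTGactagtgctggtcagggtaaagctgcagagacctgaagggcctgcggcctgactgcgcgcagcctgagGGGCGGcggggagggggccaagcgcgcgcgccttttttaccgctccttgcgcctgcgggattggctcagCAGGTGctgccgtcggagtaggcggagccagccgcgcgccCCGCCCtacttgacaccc
Windows of genes that share a cluster differed in these letters. The Gabra2 window of 250 bases held 18 CpG and 1 GGGCGG, while that of Gabrg1 held 1 CpG and no GGGCGG but 2 CANNTG. The Gabra3 window held no CpG and 1 TATAAA, while that of Gabrq held 19 CpG and 2 GGGCGG. Over all 32851 RefSeq promoter windows of this length, 12.4% held TATAAA, 17.8% TGACG, 32.7% GGGCGG and 66.2% CANNTG, and the median was 6 CpG. These matches describe the letters and are not binding sites.

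In the comparison of cTKO with control mice, 0 of the 23 members tested in the neocortex and 0 of the 22 tested in the hippocampus had an FDR under 0.05 by edgeR's quasi-likelihood test, where 0.188% of the 13843 genes tested in the neocortex and 0.489% of the 13702 tested in the hippocampus did. At an unadjusted p under 0.05, 5 of 23 members (21.7%) differed in the neocortex, 1 higher and 4 lower in cTKO, against 10.4% of all genes, and 7 of 22 (31.8%) differed in the hippocampus, 3 higher and 4 lower, against 12% of all genes. DESeq2 and edgeR's exact test each called 1 member in the neocortex, Gad2, and 2 in the hippocampus, Gabrd and Gad2. Both tests also called several times as many of all genes as the quasi-likelihood test did, with the numbers given in the last section. Fitted log2 fold changes (log2FC, given from here on as the estimate ± its standard error with the FDR of edgeR's quasi-likelihood test) of the members lay between -0.42 and 0.45 in the neocortex (median -0.019, standard errors 0.049 to 0.26) and between -0.98 and 0.30 in the hippocampus (median -0.11, standard errors 0.059 to 0.39), where the medians over all genes were 0.0090 and 0.0049. The libraries of the genotypes did not overlap for 0 of 23 members in the neocortex (2.36% of all genes) and for 2 of 22 in the hippocampus, Gabrd and Aldh5a1 (3.15% of all genes). These are whole tissues, in which fewer cells of a type and less RNA per cell cannot be told apart. Neither region's comparison shares a library with the other, but the study's methods give 5 mice of each genotype as the source of both tissues.

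**Figure D1:**
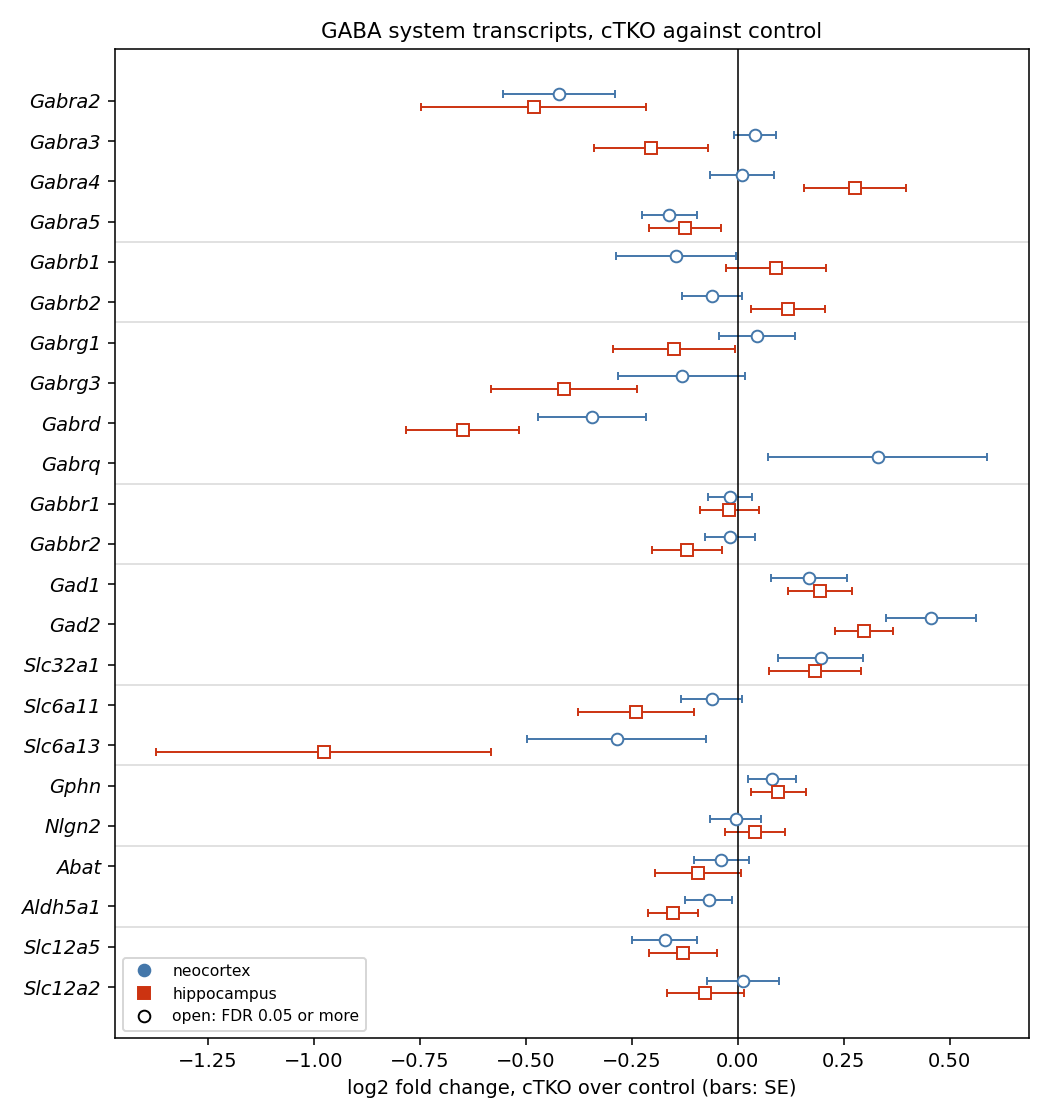
Log2FC (x axis, cTKO over control) of each tested member (y axis) in the neocortex (circles) and the hippocampus (squares), with bars of 1 standard error and open symbols where the FDR was 0.05 or more. All symbols are open, and the members farthest from 0 relative to their bars are Gad2 to the right and Gabrd to the left.

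Among the genes of synthesis and vesicle loading, all 3 had positive fold changes in both regions and Gad2 had the smallest p. Gad2 (chr2:22622205-22693874, plus strand, GRCm38) encodes the decarboxylase GAD65, which is concentrated at axon terminals. It was at 247, 256, 221, 218 and 224 CPM in the control neocortical libraries 1 to 5 and at 374, 355, 262, 351 and 248 CPM in those of cTKO mice. Of the 5 cTKO libraries, 4 lay above all controls, and the lowest was replicate 5, which stood apart. The log2FC was 0.45 ± 0.11 (FDR 0.121), with a two-sided exact permutation p of 0.0159 (n = 5 and 5). Without cTKO neocortex replicate 5, it was 0.52 (FDR 0.0181 from edgeR's quasi-likelihood test), and without cTKO neocortex replicate 3 it was 0.52 (FDR 0.0282). Over the 10 fits with 1 library left out, the FDR ranged from 0.0181 to 0.290. Leaving out either of these 2 libraries also raised the number of all genes called, as given in the last section. In the hippocampus, Gad2 was at 211, 199.7, 189, 199 and 235 CPM in controls and at 269, 261, 256, 234 and 249 CPM in cTKO mice, so that 4 of 5 cTKO libraries were above every control and the fifth, replicate 4, was just under the highest control. The log2FC was 0.30 ± 0.069 (FDR 0.0897), with an exact permutation p of 0.0159, and it was 0.32 (FDR 0.0762 from edgeR) without replicate 4. The stretch that ends where GENCODE M21 places the start of Gad2 (chr2:22622077-22622204) is shown because this member had the smallest p of the neocortex and the second smallest of the hippocampus, and it holds none of the 4 motifs. It was cut short of the 250 bases used for the other genes, and the 122 bases left out, which reach an annotated exon, hold 1 TGACG and 1 CANNTG.
Gad2: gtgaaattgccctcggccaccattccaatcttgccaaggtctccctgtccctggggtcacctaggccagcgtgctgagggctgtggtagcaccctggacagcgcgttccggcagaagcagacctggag

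Gad1 (chr2:70553072-70602014, plus strand), which encodes the cytosolic decarboxylase GAD67, was at 389, 352, 300.2, 289 and 338 CPM in control and at 419, 385, 384, 370.5 and 305 CPM in cTKO neocortex. In cTKO mice, 1 library was above every control and the others were within the range of the controls. The log2FC was 0.17 ± 0.089 (FDR 0.542). In the hippocampus, controls were at 312, 306, 267, 308 and 332 CPM and cTKO libraries at 355, 362, 368, 300.3 and 359 CPM, with 4 of 5 cTKO libraries above every control and replicate 4 within them. The log2FC was 0.19 ± 0.075 (FDR 0.332), p 0.0228 before adjustment by edgeR, and without replicate 4 it was 0.24 (FDR 0.156). Slc32a1 (chr2:158610767-158615748, plus strand), the vesicular GABA transporter, was at 87.3, 88.0, 86.1, 82.6 and 87.2 CPM in the control and at 99.3, 107, 118, 96.8 and 70.1 CPM in cTKO neocortex. Again 4 cTKO libraries were above every control, while replicate 5 was below every control, and the log2FC was 0.20 ± 0.10 (FDR 0.527), or 0.29 (FDR 0.0559 from edgeR) without replicate 5. In the hippocampus, Slc32a1 was at 45.0 to 63.6 CPM in controls and 54.5 to 78.9 CPM in cTKO mice, for which the log2FC was 0.18 ± 0.11 (FDR 0.555).

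The log2 ratio of Gad2 to Gad1 was -0.51 ± 0.11 (SD, n = 5) in control and -0.24 ± 0.19 in cTKO neocortex, and -0.56 ± 0.061 in control and -0.46 ± 0.076 in cTKO hippocampus. An exact permutation test gave a p of 0.0397 for the neocortex and of 0.0476 for the hippocampus, and both were 0.0952 after adjustment over the 12 ratio comparisons made. Of 10 interneuron markers, 0 were called in either region by edgeR's quasi-likelihood test (2 in the neocortex and 1 in the hippocampus had an unadjusted p under 0.05), and no marker was at 0 in all libraries of a group. Their summed level was 633 to 734 CPM in control and 638 to 826 CPM in cTKO neocortex. Hippocampal sums were 531 to 669 CPM in controls and 584 to 841 CPM in cTKO mice. Between genotypes, the 10 markers had a median log2FC of -0.023 (neocortex) and 0.020 (hippocampus), against 0.0090 and 0.0049 over all genes. Of 6 striatal markers, 0 were called by edgeR in cTKO neocortex (2 had an unadjusted p under 0.05, and the median log2FC was 0.34), with summed levels of 340.3 to 489.9 CPM in control and 374 to 680.1 CPM in cTKO neocortex. In cTKO hippocampus 1 of the 6, Drd1, was called, with sums of 84.7 to 111 and 89.3 to 146 CPM. Of 7 excitatory neuron markers, 0 were called by edgeR in cTKO neocortex (median log2FC 0.019). Their sums were 9548 to 10600.7 CPM in control and 8348 to 10817.2 CPM in cTKO neocortex. Of 4 tested CA1 and CA3 pyramidal cell markers, 1, Wfs1, was called higher there, where 0.188% of all genes were called. The median log2FC was -0.12. All 6 of that list summed to 275.9 to 318.7 CPM in control and 318.8 to 593.3 CPM in cTKO neocortex. The part of interneuron, striatal and excitatory neuron RNA in the Gad1, Gad2 and Slc32a1 values was not tested.

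**Figure D2:**
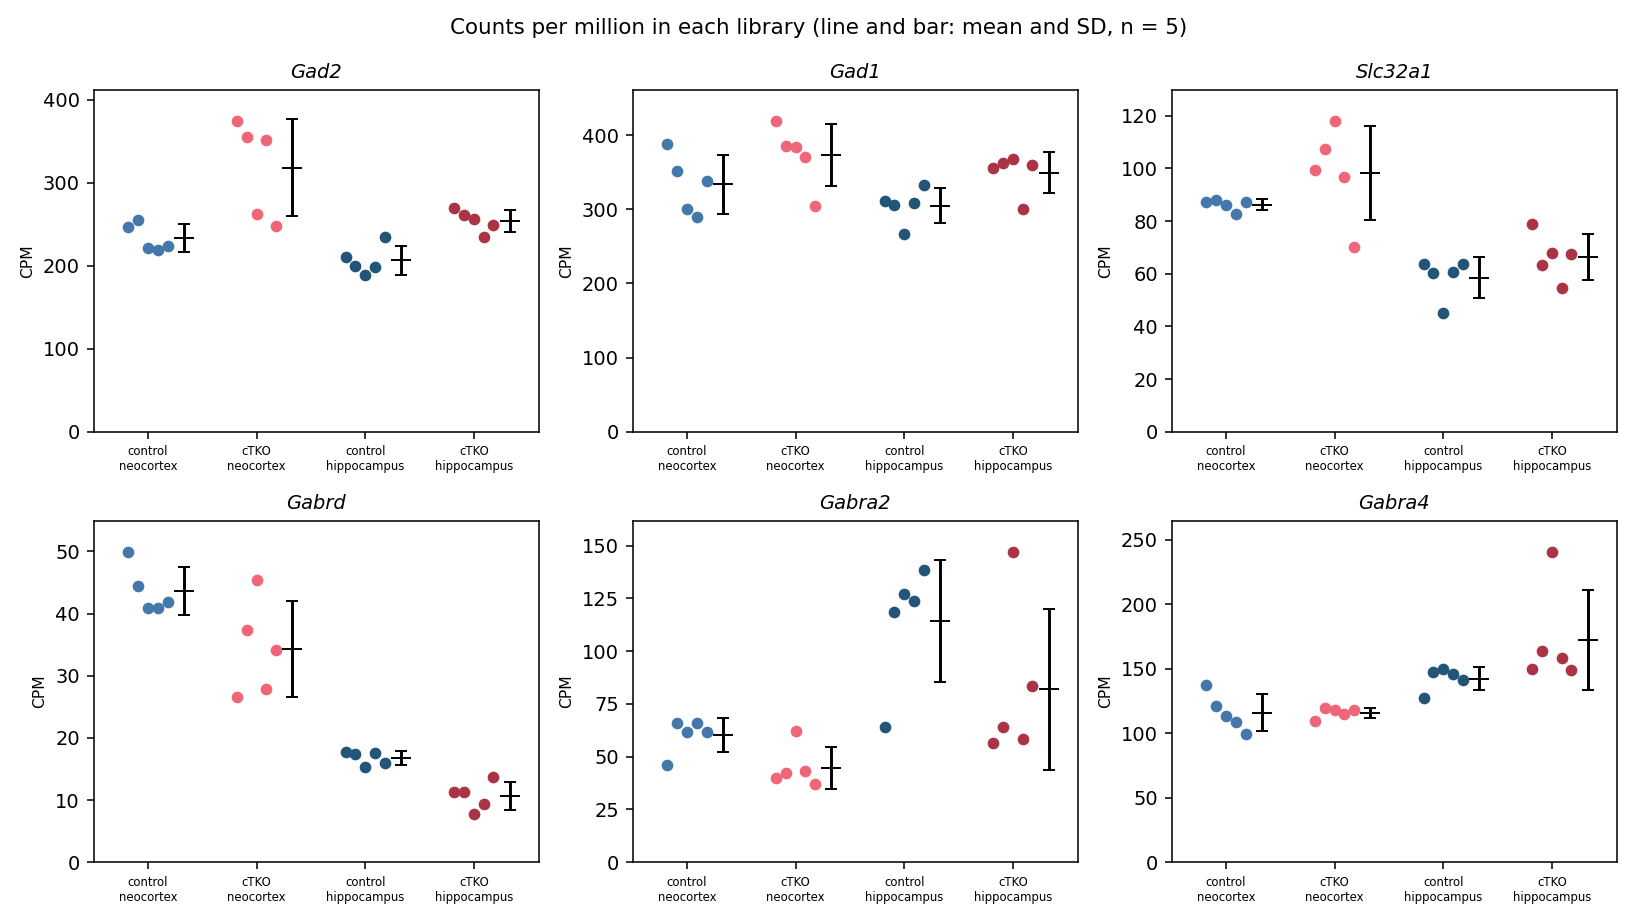
CPM (y axis, from 0) of 6 members in each library of the 4 groups (points, in order of library number), with the mean and SD of 5 libraries as a line and bar. Gad2 is higher in most cTKO libraries of both regions, Gabrd is lower in all cTKO hippocampal libraries, and 1 library of cTKO hippocampus lies far above the others for Gabra2 and Gabra4.

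Among the delta, gamma, epsilon and theta subunits, Gabrd was the member farthest below the controls in the hippocampus relative to its error. Gabrd (chr4:155384980-155398112, minus strand) encodes the delta subunit of extrasynaptic receptors, which in the hippocampus is known above all from dentate granule cells. It was at 17.7, 17.3, 15.3, 17.5 and 15.9 CPM in control hippocampus and at 11.3, 11.3, 7.71, 9.38 and 13.8 CPM in cTKO hippocampus. The highest cTKO library was below the lowest control. The log2FC was -0.65 ± 0.13 (FDR 0.0568), a change of -36.2% with an exact permutation p of 0.00794, which is the lower limit for 5 libraries per group. It was -0.61 (FDR 0.0953 from edgeR) without cTKO hippocampus replicate 4 and -0.76 (FDR 0.0143) without cTKO hippocampus replicate 5, and one fit of all 20 libraries gave an FDR of 0.0201. Over the 10 fits with 1 library left out, the FDR ranged from 0.0143 to 0.153. In the neocortex, Gabrd was at 50.0, 44.5, 40.9, 40.9 and 41.9 CPM in controls and at 26.5, 37.4, 45.5, 27.9 and 34.1 CPM in cTKO mice, with 4 cTKO libraries below every control and replicate 3 within them. The log2FC there was -0.35 ± 0.13 (FDR 0.353).

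Beside the Gabrd values of the hippocampus, 0 of 6 dentate granule cell markers were called by edgeR in cTKO hippocampus, 3 had an unadjusted p under 0.05, and their summed level was 349 to 523 CPM in controls and 433 to 604 CPM in cTKO mice. The median log2FC of the 6 markers in the hippocampus was 0.062, where the median over all genes was 0.0049. The part of dentate granule cells in the Gabrd value was not tested. Gabrg3 (chr7:56716465-57387188, minus strand), a gamma subunit gene of low level, was at 6.03, 4.76, 5.22, 5.04 and 5.91 CPM in control and at 3.98, 3.46, 4.91, 2.78 and 5.12 CPM in cTKO hippocampus. The groups overlapped in 2 cTKO libraries, and the log2FC was -0.41 ± 0.17 (FDR 0.369). In the neocortex it was at 6.58 to 9.79 CPM in controls and 5.41 to 9.06 CPM in cTKO mice (log2FC -0.13 ± 0.15, FDR 0.819). Gabrg1, the gamma subunit of glia and some neurons, had log2FC values of 0.044 ± 0.09 (FDR 0.913) in the neocortex and -0.15 ± 0.14 (FDR 0.749) in the hippocampus, where it was -0.046 (FDR 0.921) without cTKO replicate 4. Gabrq, the theta subunit, was at 1.60 to 3.64 CPM in control and 2.45 to 5.30 CPM in cTKO neocortex (log2FC 0.33 ± 0.26, FDR 0.708). In the hippocampus Gabrq was at 0.428 to 1.36 and 0.394 to 1.65 CPM and was not kept by the filter of a CPM above 1 in at least 5 libraries. Gabre, the epsilon subunit, was at 0.0502 to 0.903 CPM over all 20 libraries, was not kept by the main filter in any comparison and was not called in the settings that kept it.

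Among the alpha subunits, Gabra2 had libraries far from their group in both regions. Gabra2 (chr5:70957597-71095849, minus strand) encodes the alpha-2 subunit, found at the axon initial segment and at synapses of principal cells. It was at 46.2, 65.8, 61.8, 65.7 and 61.9 CPM in control and at 40.1, 42.0, 62.0, 43.1 and 36.8 CPM in cTKO neocortex. Control replicate 1 was low among controls and cTKO replicate 3 was high among cTKO libraries. The log2FC was -0.42 ± 0.13 (FDR 0.265), and without cTKO neocortex replicate 3 it was -0.56 (FDR 0.0225 from edgeR). Over the 10 fits with 1 library left out, the FDR ranged from 0.0225 to 0.509. In the hippocampus, Gabra2 was at 64.1, 119, 127, 124 and 138 CPM in controls and at 56.3, 63.9, 147, 58.5 and 83.6 CPM in cTKO mice. The same library numbers were low and high here, control replicate 1 and cTKO replicate 3, and the labels do not say whether a number marks the same mouse in both regions. The log2FC was -0.48 ± 0.27 (FDR 0.515), and it was -0.80 (FDR 0.113) without cTKO hippocampus replicate 3 and -0.63 (FDR 0.397) without control hippocampus replicate 1.

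Gabra5 (chr7:57407672-57510059, minus strand) was at 75.2, 75.3, 78.1, 75.5 and 69.5 CPM in control and at 59.3, 69.6, 74.1, 64.6 and 64.8 CPM in cTKO neocortex. Of the cTKO libraries, 3 were below every control, and the log2FC was -0.16 ± 0.065 (FDR 0.401). In the hippocampus it was at 279 to 306 CPM in controls and 209 to 293 CPM in cTKO mice (log2FC -0.12 ± 0.086, FDR 0.629). Gabra4 (chr5:71569749-71658308, minus strand), the alpha subunit that joins delta in extrasynaptic receptors, had a log2FC of 0.0089 ± 0.075 (FDR 0.983) in the neocortex. In the hippocampus it was at 128 to 149.8 CPM in controls and 149 to 241 CPM in cTKO mice, with 4 cTKO libraries above every control and a log2FC of 0.28 ± 0.12 (FDR 0.385). That value was 0.13 (FDR 0.469) without cTKO hippocampus replicate 3, the library at 241 CPM. Gabra3 (chrX:72432681-72656848, minus strand) had log2FC values of 0.041 ± 0.049 (FDR 0.833) and -0.20 ± 0.14 (FDR 0.611) in the neocortex and the hippocampus, and the latter was -0.10 (FDR 0.763) without cTKO replicate 4. Gabra6, known from cerebellar granule cells, had 0 to 12 counts in any library, was not kept by the main filter in any comparison and was not called without a filter. The beta subunits Gabrb1 and Gabrb2, which carry the GABA binding interface together with alpha, had log2FC values of -0.15 ± 0.14 (FDR 0.777) and -0.062 ± 0.071 (FDR 0.822) in the neocortex and of 0.09 ± 0.12 (FDR 0.830) and 0.12 ± 0.088 (FDR 0.663) in the hippocampus. Gabra4 and Gabrb1 start head to head and overlap by 196 bases (chr5:71658113-71658308), where reads cannot be assigned by position alone, since the strand setting of the counting was not stated.

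Neither GABA-B subunit had an unadjusted p under 0.05 between genotypes. Gabbr1 was at 850.3 ± 13.6 CPM (SD, n = 5) in control and 836 ± 55.6 CPM in cTKO neocortex, and at 826 ± 49.1 and 815 ± 65.5 CPM in the hippocampus. Its log2FC values were -0.019 ± 0.053 (FDR 0.939) in the neocortex and -0.02 ± 0.07 (FDR 0.954) in the hippocampus. Gabbr2 had log2FC values of -0.019 ± 0.058 (FDR 0.945) and -0.12 ± 0.082 (FDR 0.630). The log2 ratio of Gabbr2 to Gabbr1 did not pass the threshold between genotypes in either region, with differences of 0.00069 in the neocortex (exact permutation p 1) and -0.10 in the hippocampus (exact permutation p 0.2302).

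Of the transporters, Slc6a13 had the fold change farthest from 0 among the members tested in the hippocampus, and also the largest standard error. Slc6a13 (chr6:121300227-121337733, plus strand) encodes GAT2, which is known from the leptomeninges and choroid plexus rather than from neurons. It was at 20.4, 12.1, 13.8, 10.6 and 3.19 CPM in control and at 2.42, 7.66, 8.001, 6.46 and 6.05 CPM in cTKO hippocampus. Control replicate 1 was the highest and control replicate 5 was lower than 4 of 5 cTKO libraries, so the groups overlapped. The log2FC was -0.98 ± 0.39 (FDR 0.349), with an exact permutation p of 0.175. Of 6 meningeal markers, 0 were called by edgeR in the hippocampus (0 with an unadjusted p under 0.05), and their summed level was 157 to 535 CPM in controls and 141 to 417 CPM in cTKO mice. Of 5 choroid plexus markers 0 were called and 3 had an unadjusted p under 0.05, with sums of 75.3 to 2697 and 111 to 596 CPM. The part of meninges and choroid plexus in the Slc6a13 value was not tested. In the neocortex, Slc6a13 was at 7.22 to 12.1 CPM in controls and 3.98 to 9.16 CPM in cTKO mice (log2FC -0.29 ± 0.21, FDR 0.686). Of the meningeal markers, 0 were called by edgeR in the neocortex and 4 had an unadjusted p under 0.05, with sums of 113 to 224 CPM in controls and 147 to 589 CPM in cTKO mice, the highest in replicate 5. Slc6a11, which encodes the astrocyte transporter GAT3, had log2FC values of -0.062 ± 0.073 (FDR 0.826) in the neocortex and -0.24 ± 0.14 (FDR 0.534) in the hippocampus. The hippocampal value was -0.14 (FDR 0.667) without cTKO replicate 4, the lowest library of its group and one of the libraries with embryonic transcripts.

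Of the enzymes of breakdown, Aldh5a1 (chr13:24907579-24937661, minus strand), the succinate semialdehyde dehydrogenase of the last step, was at 125.1, 124.9, 121.5, 125.6 and 128.9 CPM in control hippocampus and at 114.5, 106.5, 118.5, 102.1 and 121.3 CPM in cTKO hippocampus. The groups did not overlap, though the gap between them was under 1 CPM. The log2FC was -0.15 ± 0.059 (FDR 0.330), p 0.0224 before adjustment by edgeR, and the exact permutation p was 0.00794. In the neocortex it was at 106 to 116 CPM in controls and 98.2 to 113 CPM in cTKO mice (log2FC -0.069 ± 0.055, FDR 0.709). Abat, the GABA transaminase, had log2FC values of -0.039 ± 0.065 (FDR 0.891) and -0.094 ± 0.10 (FDR 0.789). The postsynaptic genes Gphn, which encodes the scaffold gephyrin, and Nlgn2, which encodes the adhesion protein of inhibitory synapses, had log2FC values of 0.08 ± 0.056 (FDR 0.670) and -0.0053 ± 0.06 (FDR 0.989) in the neocortex and of 0.10 ± 0.065 (FDR 0.626) and 0.041 ± 0.07 (FDR 0.887) in the hippocampus.

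The chloride exporter gene Slc12a5 (chr2:164960802-164999731, plus strand) was at 717, 593, 597, 573 and 624 CPM in control and at 553, 569.7, 629, 514 and 476 CPM in cTKO neocortex. Of the cTKO libraries, 4 were below every control and replicate 3 was second among all 10. The log2FC was -0.17 ± 0.077 (FDR 0.449), with p 0.0422 before adjustment by edgeR. In the hippocampus, it was at 373 to 479 CPM in controls and 359.8 to 446 CPM in cTKO mice (log2FC -0.13 ± 0.081, FDR 0.581). The importer gene Slc12a2 had log2FC values of 0.013 ± 0.085 (FDR 0.978) and -0.077 ± 0.09 (FDR 0.808). The log2 ratio of Slc12a5 to Slc12a2 was 2.90 ± 0.22 in control and 2.71 ± 0.23 in cTKO neocortex (SD, n = 5, exact permutation p 0.198), and 2.48 ± 0.30 in control and 2.42 ± 0.10 in cTKO hippocampus (exact permutation p 0.683).

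Of the other genes of the pathway, a list of 37 that holds receptor-associated proteins, GABA-B auxiliary subunits and channels, glycine receptor subunits and genes of glutamine supply, 36 were found in the files and 30 were tested. By edgeR's quasi-likelihood test, 0 were called between genotypes in either region, and 6 had an unadjusted p under 0.05 in each region, where 10.4% of all genes in the neocortex and 12% in the hippocampus did. The median of their log2FC values was -0.0050 for the neocortex and 0.023 for the hippocampus. The region by genotype interaction called 0 of 23 members and 0 of 30 pathway genes, where 0.0564% of 14192 genes were called, and 0 members had an unadjusted p under 0.05 (3.75% of all genes). Among members, the interaction estimates lay between -0.68 for Slc6a13 (standard error 0.48) and 0.27 for Gabra4 (standard error 0.15), so differences between the regions' genotype effects were not detectable at this precision. DESeq2 called 0 members for the interaction.

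Between regions, most members differed. Of the libraries of the 2 regions, those of 14 of 23 members did not overlap in controls (60.9%, where 44.2% of all genes did not) and those of 9 of 23 in cTKO mice (39.1%, where 28.8% of all genes did not). In control mice, 19 of the 23 tested members passed an FDR of 0.05 by edgeR, 9 higher and 10 lower in the hippocampus (82.6%, where 59.1% of 13832 genes passed), a count that includes Gabrq, kept by the filter through its neocortical libraries. In cTKO mice, 13 of 23 passed, 4 higher and 9 lower (56.5%, where 41.3% of 13846 genes passed, 20.2% higher and 21.1% lower). The 13 include Gabrq, as do the 14 and the 9 members whose libraries did not overlap. All 13 were also called in controls with the same direction, and 6 were called in controls alone. The interaction called no member, but at its precision it could not decide whether the genotypes differ in these 6. The count in cTKO mice was 13 as well without both libraries that stood apart. The median log2 difference of the tested members was -0.10 in controls and -0.20 in cTKO mice, against 0.012 and -0.0028 over all genes. The neocortex and the hippocampus were extracted with different RNA kits, so that region and kit cannot be told apart. The neocortical libraries also held more striatal transcripts. Of 6 striatal markers, 6 were called lower in the hippocampus of both genotypes, where 29.2% of all genes were in controls and 21.1% in cTKO mice. Control sums were 340.3 to 489.9 CPM for the neocortex against 84.7 to 111 CPM for the hippocampus. The part of striatal tissue in these differences was not tested.

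**Figure D3:**
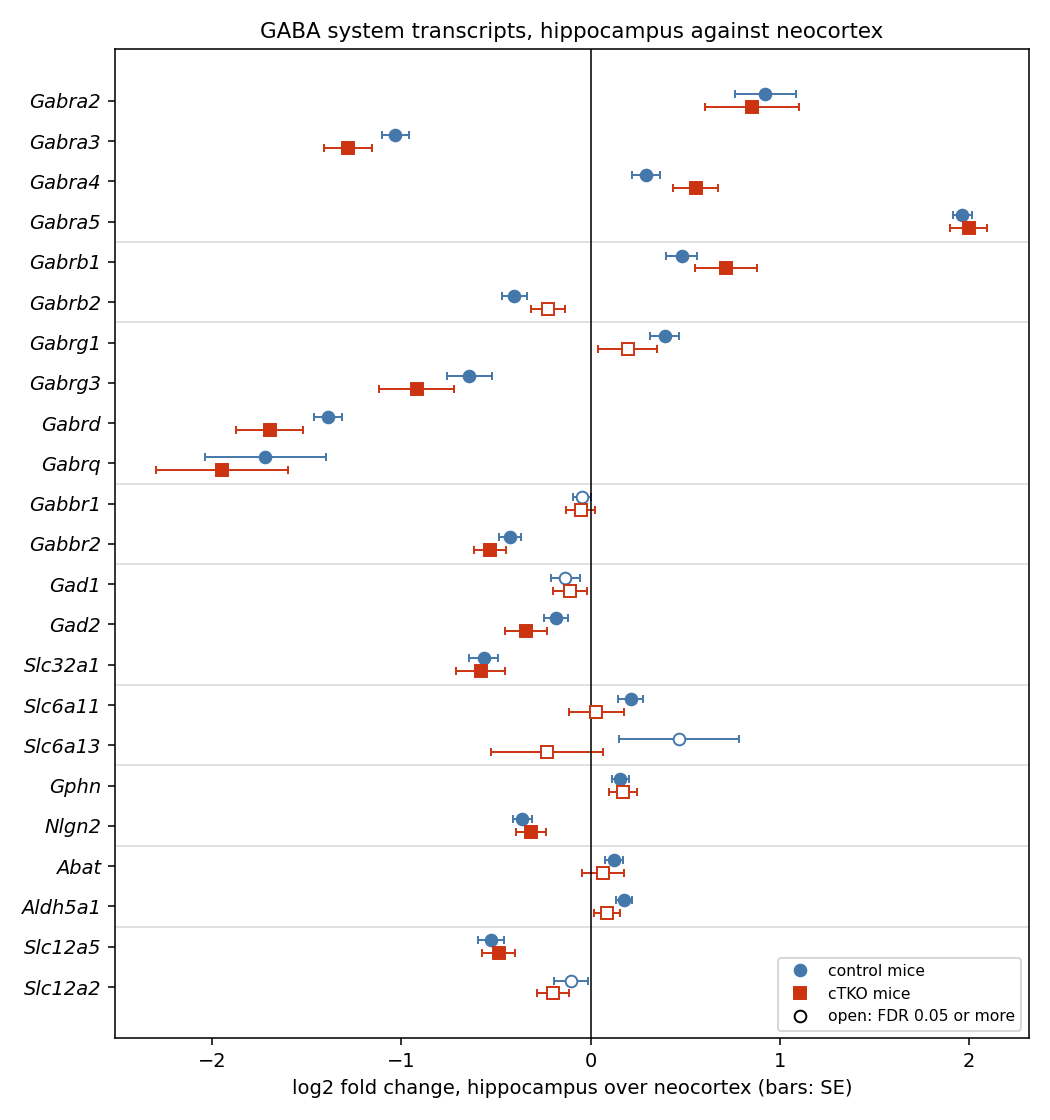
Log2FC (x axis, hippocampus over neocortex) of each tested member (y axis) in control mice (circles) and cTKO mice (squares), with bars of 1 standard error and open symbols where the FDR was 0.05 or more. Gabra5 lies near 2 in both genotypes, and Gabra3, Gabrd and Gabrq lie below -1 in both. Gabrq was kept by the filter of low counts through its neocortical libraries, where it is high.

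The members farthest from 0 between regions were all receptor subunits. Gabra5, at 69.5 to 78.1 CPM in control neocortex, was at 288, 279, 306, 298 and 291 CPM in control hippocampus. No library of one region reached the range of the other, and the log2FC was 1.963 ± 0.049 (FDR 2.54e-13) in controls and 1.996 ± 0.10 (FDR 3.16e-08) in cTKO mice. Gabra3, which encodes a subunit that is common in neocortex and in modulatory nuclei, was at 223, 223, 207, 212 and 211 CPM in control neocortex and at 121, 96.2, 94.8, 97.0 and 118 CPM in control hippocampus. It was lower in every hippocampal library than in every neocortical one, with log2FC values of -1.03 ± 0.071 (FDR 1.08e-08) and -1.28 ± 0.13 (FDR 7.92e-06) in control and cTKO mice. Gabra2 was higher in 4 of 5 control hippocampal libraries than in every neocortical one, with log2FC values of 0.92 ± 0.16 (FDR 1.63e-04) and 0.85 ± 0.25 (FDR 0.0150). Gabra4 differed by 0.29 ± 0.074 (FDR 0.00342) and 0.55 ± 0.12 (FDR 0.00288) on the log2 scale.

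On levels per kilobase of exon (GENCODE M21 exon union), which allow genes to be compared, the leading alpha gene among the 5 differed by region. In control neocortex, Gabra3 was at 54.8 ± 1.88 CPM per kb (SD, n = 5), above Gabra5 at 25.1 ± 1.06, Gabra4 at 19.03 ± 2.35 and Gabra2 at 7.89 ± 1.06. In control hippocampus, Gabra5 was at 98.3 ± 3.33 CPM per kb, above Gabra3 at 26.9 ± 3.32, Gabra4 at 23.4 ± 1.45 and Gabra2 at 15.0 ± 3.80. The levels of Gabra3 and Gabra4 in control hippocampus were separated by less than the sum of their SDs. As a share of the summed level per kb of these 5 alpha genes, to which alpha genes outside the list do not contribute, Gabra3 made up 51.3 ± 1.13% in control and 54.3 ± 2.21% in cTKO neocortex and 16.5 ± 2.21% and 15.4 ± 3.67% in the hippocampus. Gabra5 made up 23.5 ± 0.887% and 21.6 ± 1.301% in the neocortex and 60.1 ± 1.51% and 59.2 ± 4.92% in the hippocampus.

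**Figure D4:**
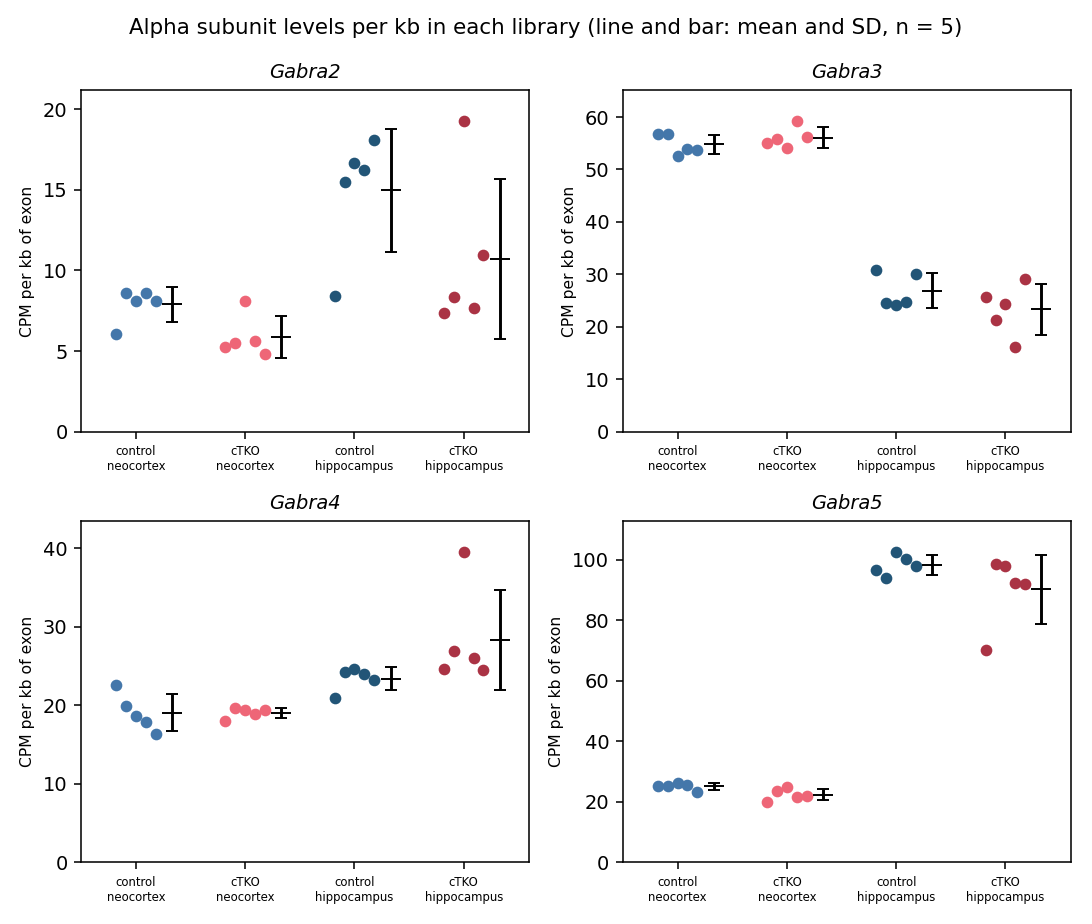
Level per kb of exon (y axis, CPM per kb, from 0) of 4 alpha subunit genes in each library of the 4 groups (points, in order of library number), with the mean and SD of 5 libraries as a line and bar. Gabra5 is higher and Gabra3 lower in every hippocampal library, and Gabra2 has 1 low control and 1 high cTKO library in each region.

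Gabrd ranged over 40.9 to 50.0 CPM in the neocortex of controls and over 15.3 to 17.7 CPM in their hippocampus, and its log2FC was -1.39 ± 0.072 (FDR 4.56e-10) in controls and -1.70 ± 0.18 (FDR 1.10e-05) in cTKO mice. Gabrq was at 1.60, 3.64, 3.21, 2.48 and 3.40 CPM in control neocortex and at 1.11, 0.472, 1.36, 0.428 and 0.941 CPM in control hippocampus, where it had 9 to 30 counts. It was kept by the filter through its neocortical libraries, where it is high, and was not kept in the fit of hippocampal libraries. Its groups did not overlap, with log2FC values of -1.72 ± 0.32 (FDR 2.81e-04) and -1.95 ± 0.35 (FDR 7.40e-04). Gabrg3 was at 8.81, 8.48, 9.79, 6.58 and 8.20 CPM in control neocortex and was lower in every control hippocampal library, with log2FC values of -0.64 ± 0.12 (FDR 2.87e-04) and -0.92 ± 0.20 (FDR 0.00272). The beta subunits moved apart, Gabrb1 by 0.48 ± 0.082 (FDR 1.31e-04) and Gabrb2 by -0.40 ± 0.067 (FDR 1.04e-04) in controls. In cTKO mice, Gabrb1 differed by 0.72 ± 0.17 (FDR 0.00417) and Gabrb2 by -0.23 ± 0.089 (FDR 0.0586), or -0.26 (FDR 0.0459) without cTKO hippocampus replicate 4. Gabrg1 differed by 0.39 ± 0.076 (FDR 3.96e-04) in controls and by 0.20 ± 0.15 (FDR 0.339) in cTKO mice, where it was 0.31 (FDR 0.0685) without hippocampus replicate 4.

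The receptor genes of one chromosomal cluster did not always move alike. On chromosome 5, Gabrg1 (chr5:70751047-70842617), Gabra2 (chr5:70957597-71095849), Gabra4 (chr5:71569749-71658308) and Gabrb1 (chr5:71658113-72149037) were all higher in control hippocampus, where 29.8% of all genes were. On chromosome X, Gabra3 (chrX:72432681-72656848) and Gabrq (chrX:72825178-72842602) were both lower, where 29.2% of all genes were. Gabrq was kept by the filter through its neocortical libraries, where it is high, so its call adds no weight to this pair. Gabre (chrX:72255999-72274803), also a member on chromosome X, was not kept by the filter. On chromosome 7, Gabra5 (chr7:57407672-57510059) was higher and Gabrg3 (chr7:56716465-57387188) was lower. Gabrb2 (chr11:42419757-42629028) on chromosome 11 was lower beside Gabra6 (chr11:42306437-42321072), which was not kept by the filter.

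Outside the GABA-A receptor, the GABA-B subunits diverged. Gabbr2 ranged over 377 to 431 CPM in the neocortex of controls and over 272 to 325 CPM in their hippocampus, with log2FC values of -0.43 ± 0.057 (FDR 1.19e-05) in controls and -0.53 ± 0.084 (FDR 3.16e-04) in cTKO mice. Gabbr1 differed by -0.048 ± 0.048 (FDR 0.403) and -0.053 ± 0.077 (FDR 0.620), neither of which was called. The log2 ratio of Gabbr2 to Gabbr1 fell from -1.09 ± 0.080 to -1.46 ± 0.042 in controls and from -1.08 ± 0.11 to -1.57 ± 0.19 in cTKO mice (SD, n = 5). Each had an exact permutation p of 0.00794, the smallest possible, and 0.0476 after adjustment over the 12 ratio comparisons. Paired by library number in controls, an exact sign-flip test gave a p of 0.0625, the smallest that 5 pairs allow.

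Slc32a1 was at 63.6, 60.2, 45.0, 60.5 and 63.5 CPM in control hippocampus, where every library was below every control neocortical one, with log2FC values of -0.56 ± 0.078 (FDR 1.64e-05) and -0.58 ± 0.13 (FDR 0.00323) in control and cTKO mice. Gad2 differed by -0.18 ± 0.064 (FDR 0.0233) in controls and by -0.34 ± 0.11 (FDR 0.0273) in cTKO mice, and the calls were lost in 6 of 17 and 6 of 18 other settings, 1 of the latter without cTKO hippocampus replicate 4 at -0.31 (FDR 0.0574). Gad1 differed by -0.13 ± 0.077 (FDR 0.145) and -0.11 ± 0.089 (FDR 0.346) and was not called. Of 10 interneuron markers, 6 were called lower and 3 higher in control hippocampus, where 29.2% of all genes were lower and 29.8% higher. Their summed levels were 531 to 669 CPM in control hippocampus and 633 to 734 CPM in control neocortex. The part of interneuron number in the Slc32a1 difference was not tested.

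Slc6a11 was higher in control hippocampus by 0.21 ± 0.064 (FDR 0.0105), a call that one fit of all 20 libraries lost (FDR 0.132 from edgeR), and differed by 0.03 ± 0.14 (FDR 0.889) in cTKO mice. Beside it, 5 of 6 astrocyte markers were called higher and 1 lower in control hippocampus, where 29.8% of all genes were higher and 29.2% lower. Their sums ran over 1812 to 2195 CPM in the neocortex and over 2780 to 3569.7 CPM in the hippocampus of controls. The part of astrocytes in the Slc6a11 difference was not tested. Slc6a13 differed by 0.47 ± 0.32 (FDR 0.219) in controls, and by 0.71 (FDR 0.00435) without control hippocampus replicate 5 but 0.20 (FDR 0.577) without control hippocampus replicate 1. Nlgn2 was lower in the hippocampus, with a log2FC of -0.36 ± 0.052 (FDR 2.58e-05) in controls and of -0.32 ± 0.08 (FDR 0.00662) in cTKO mice, while Gphn was higher by 0.16 ± 0.046 (FDR 0.00835) in controls and differed by 0.17 ± 0.074 (FDR 0.0845) in cTKO mice. Aldh5a1 and Abat were higher in control hippocampus by 0.17 ± 0.044 (FDR 0.00295) and 0.12 ± 0.05 (FDR 0.0460), and the call of Abat was lost in 11 of 17 other settings. In cTKO mice they differed by 0.088 ± 0.07 (FDR 0.341) and 0.065 ± 0.11 (FDR 0.682).

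Slc12a5 was at 451, 435, 373, 426 and 479 CPM in control hippocampus, below every control neocortical library, with log2FC values of -0.53 ± 0.07 (FDR 1.21e-05) in controls and -0.49 ± 0.088 (FDR 8.33e-04) in cTKO mice. Slc12a2 differed by -0.10 ± 0.088 (FDR 0.325) and -0.20 ± 0.084 (FDR 0.0784), neither of which was called. The log2 ratio of the 2 genes differed by -0.42 in controls and -0.29 in cTKO mice (exact permutation p 0.0317 and 0.0397, both 0.0952 after adjustment over 12). Among the other pathway genes, 11 were higher and 7 lower in control hippocampus of 30 tested, where 59.1% of all genes were called, and 9 were higher and 6 lower in cTKO hippocampus, where 41.3% of all genes were called. The largest called differences in controls were those of Kctd12, which encodes an auxiliary subunit of GABA-B receptors, at a log2FC of 1.499 ± 0.062 (FDR 3.74e-11), of Dbi, which encodes the diazepam binding inhibitor, at 1.2998 ± 0.11 (FDR 6.41e-08), and of Kcnj9, which encodes a potassium channel subunit opened by GABA-B receptors, at -1.21 ± 0.071 (FDR 1.98e-09).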

How the data were processed

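Processed RNA-seq data of 20 libraries were used. The authors mapped 100-bp single-end reads of poly-A libraries to mm10 with STAR 2.5.4a, counted them with HTSeq and deposited raw counts per gene symbol; the strand setting and annotation of the counting are not given in the sources used here. Neocortical and hippocampal RNA came from different extraction kits. Differences were tested with edgeR 4.0.16 in R 4.3.3 (TMM, quasi-likelihood test, keeping genes that exceeded 1 CPM in 5 or more libraries of a fit), with Benjamini-Hochberg adjustment (FDR) over all genes tested. Genotypes were compared within each region, regions within each genotype, and the interaction in a fit of all 20 libraries. Single values and log2 ratios were compared by two-sided exact permutation tests of log2 CPM (prior count 2; 252 splits, smallest p 0.00794).

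The 25 members, the other lists and the tests were chosen with earlier results of these data known. By rule, values per library are given for the 6 members with the smallest p per region and the 8 with the largest regional change. Kctd12, Dbi and Kcnj9 are the 3 largest regional calls of the pathway list. GABA-A subunits and transporters outside the list were not analysed here. Neocortical and hippocampal libraries of the same number correlated in their deviations at r 0.130 to 0.335 in all 5 control pairs, but not in cTKO pairs 4 and 5 (r -0.056 and -0.071). Blocking by number in controls changed none of the 19 calls. Positions and exon lengths are from GENCODE M21 on GRCm38, and upstream sequences from RefSeq. The procedures were tested on simulated data. Of 1.3-fold genotype changes, the main test recovered 30.5% in the neocortex and 14.5% in the hippocampus, where 12.1% of calls were false. Of 2-fold changes it recovered 89.5% and 87.5%. The interaction recovered 0% of 1.3-fold and 43.5% of 1.5-fold changes, so small changes would mostly be missed. Alternatives were DESeq2 1.42.0, the exact test, other size factors and filters, one fit of all libraries, the number as a block, and each library left out. Figures were drawn with matplotlib 3.10.9.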

Additional observations from a re-analysis of the deposited data

Results flagged for a closer look

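Of the 100 combinations of a member and a group of 5 libraries, 11 held 1 library far from the other 4, where a group is singled out by this measure about 5% of the time by chance.

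Gabra2 was singled out in 3 groups. Control neocortex replicate 1 was at 46.2 CPM (the other 4 libraries: 61.8 to 65.8 CPM), and control hippocampus replicate 1 at 64.1 CPM (the other 4 libraries: 119 to 138 CPM). The cTKO neocortex replicate 3 was at 62.0 CPM (the other 4 libraries: 36.8 to 43.1 CPM), and cTKO hippocampus replicate 3 was the highest of its group as well.

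Other members of cTKO replicate 3 stood out: Gabra4 in the hippocampus at 241 CPM (the other 4 libraries: 149 to 163 CPM), and Gabrb2 in the neocortex at 359 CPM (the other 4 libraries: 412 to 423 CPM). The cTKO replicate 1 was low for Gabra5 in the hippocampus, at 209 CPM (the other 4 libraries: 273 to 293 CPM), and high for Gabrg1 in the neocortex, at 21.4 CPM (the other 4 libraries: 16.8 to 18.1 CPM). The cTKO hippocampus replicate 4, which held the embryonic transcripts, was low for Gad1, at 300.3 CPM (the other 4 libraries: 355 to 368 CPM). Control hippocampus replicate 3, which held the most choroid plexus transcripts, was low for Slc32a1, at 45.0 CPM (the other 4 libraries: 60.2 to 63.6 CPM), and for Nlgn2, at 246 CPM (the other 4 libraries: 279 to 289.9 CPM). Gabre in cTKO hippocampus replicate 5 was at 0.677 CPM (the other 4 libraries: 0.289 to 0.369 CPM), a gene with at most 20 counts in any library.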

How the results depend on the processing

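The number of members called between genotypes in the neocortex was 0, and it was 1 with DESeq2 and with edgeR's exact test (Gad2 in both), and 0 to 2 when 1 library was left out, 2 without cTKO neocortex replicate 3 (Gabra2 and Gad2) and 1 without cTKO neocortex replicate 5 (Gad2). In the hippocampus it was 0, and it was 2 with DESeq2 and the exact test, 1 in one fit of all 20 libraries (Gabrd), and 0 to 1 when 1 library was left out, 1 without cTKO hippocampus replicate 5. Over all settings, the FDR of Gad2 ranged from 0.00788 to 0.290 in the neocortex and from 0.00204 to 0.233 in the hippocampus, and that of Gabrd in the hippocampus from 0.0011 to 0.153, with the direction kept in all 17 settings of each. The numbers of all genes called moved more: in the neocortex from 26 to 221 with DESeq2, 163 with the exact test, 42 without a filter, 12 with the replicate block, and 7 to 133 when 1 library was left out (133 without cTKO replicate 5, 120.0 without cTKO replicate 3 and 7 to 15 without any 1 of the other 8); in the hippocampus from 67 to 331 with DESeq2, 258 with the exact test, 189 in one fit of all libraries, and 15 to 149 (149 without cTKO replicate 5, and 15 to 39 without any 1 of the controls or cTKO replicate 2); for the interaction from 8 to 26 with DESeq2, 18 with the replicate block, and 5 to 20. Members called between regions numbered 16 to 19 in controls and 12 to 15 in cTKO mice under all settings, and the replicate block changed neither 19 nor 13. In cTKO mice the block is no check of pairing, since pairs 4 and 5 did not correlate (r -0.056 and -0.071). There, neocortex replicate 5 correlated best with hippocampus replicate 4 (r 0.575). The same limit holds for the block in the interaction and in the cTKO ratios. Same-numbered libraries of the 2 genotypes correlated in their deviations at r -0.0091 to 0.221 in the neocortex, where 4 of 5 control libraries correlated best with their own number, and at r -0.14 to 0.140 in the hippocampus, where 1 of 5 did. Not every pair exceeded 0.1, so the numbers were not taken as pairs, and the block called 0 members in either region. The ratio of Gabbr2 to Gabbr1 differed between regions by -0.38 in controls and -0.48 in cTKO mice, also with the replicate block, where neither could pass the threshold with 5 pairs, and by -0.40 to -0.35 and -0.54 to -0.43 when 1 library was left out, where the smallest possible p was 0.0159 and the adjusted value passed only in cTKO mice without cTKO neocortex replicate 3. The ratio of Gad2 to Gad1 differed between genotypes in the neocortex by 0.23 to 0.35 when 1 library was left out, and between regions in cTKO mice by -0.29 to -0.17, and each passed only without cTKO neocortex replicate 3. No call turned in direction under any setting run. Depth limits Gabra6, Gabre and Gabrq in the hippocampus, which hold few counts.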
